A study of Ovis aries with 23 samples.

Results

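RETN and ANKRD22 were described in lung tissue of 23 sheep with experimental acute respiratory distress syndrome (ARDS). They are 2 of the 20 features in the deposited table, RETN at place 3 (tag T003) and ANKRD22 at place 14 (tag T024), and were named by the same places in the probe table of the supplement. No table used here pairs tags with genes. Under this naming, RBP7, which the study left out as below detection, falls on T011, the feature with the second lowest median count (8 per animal). The lowest median (7) was that of T007, the place of ZDHHC19 in the probe table. The text of the study names ZDHHC18 as the other gene left out, so T007 does not settle the naming. In the phenotype comparison below, the exact Mann-Whitney p by place was 0.369 for RETN, 0.305 for ANKRD22, 0.00857 for GPR84 and 0.00689 for CEACAM1. When rounded, these match what the study printed for the same genes, in direction too. OLFM4 and LCN2 differed slightly from the printed values. T039 shared the p and the sign of RETN, so this check alone does not single out T003. The pair was selected on log2 values already known from these animals, those of the animal titled SD11 and the correlation of the genes, so both are given without a test.

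All animals were anesthetized, mechanically ventilated female Merino-Dorset crossbreed ewes aged 1 to 3 years, and all received oleic acid intravenously, including the Ph1 animals (phenotype 1, hypoinflammatory, n = 14). The Ph2 animals (phenotype 2, hyperinflammatory, n = 9) received oleic acid followed by intravenous lipopolysaccharide (LPS) of E. coli. Lung was harvested at 6 h (5 Ph1 and 3 Ph2), 12 h (4 and 3) or 24 h (5 and 3), once per animal. Per the methods, 3 lobes of the right lung were sampled and their RNA was pooled. The animals were controls of the CELTIC (12) and STARDUST (11) studies, and all 8 animals at 24 h belonged to STARDUST, so among them harvest at 24 h and study cannot be told apart. The groups hold no uninjured animals.

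RETN encodes resistin, a small secreted, cysteine-rich protein. In humans it is made mainly by monocytes, macrophages and neutrophils, and in mice mainly by fat cells. It is known as an inflammatory mediator whose blood level rises in sepsis. ANKRD22 encodes a small ankyrin repeat protein, and its transcript is known from blood signatures of infection, where it rises in myeloid cells. In whole lung tissue, fewer cells of a type and less RNA per cell cannot be told apart. The panel held no gene that defines monocytes or macrophages, so the cells behind either signal were not identified.

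The nCounter assay counts a transcript through a reporter probe, which carries the coloured tag, and a capture probe, which holds the complex to the surface. The probes of both genes are shown because every value below is a count of these pairs. They are written 5′ to 3′, and capitals mark the 50 bases of each capture probe that follow the 25 bases shared by all 22 capture probes of the panel. The border between the gene-specific part and the tag part of the reporter probes was not determined.
RETN capture probe: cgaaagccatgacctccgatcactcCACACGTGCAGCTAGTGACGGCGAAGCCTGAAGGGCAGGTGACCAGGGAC
RETN reporter probe: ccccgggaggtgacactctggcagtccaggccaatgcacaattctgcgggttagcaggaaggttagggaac
ANKRD22 capture probe: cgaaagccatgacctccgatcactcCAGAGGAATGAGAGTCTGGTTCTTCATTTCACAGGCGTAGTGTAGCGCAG
ANKRD22 reporter probe: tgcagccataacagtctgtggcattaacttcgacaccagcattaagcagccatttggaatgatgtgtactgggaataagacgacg
The transcripts for which these probes were designed carry the symbols RETN and ANKRD22 in RefSeq (sheep assembly ARS-UI_Ramb_v3.0). The capital parts had a GC content of 64% for RETN, the second highest of the 22 panel genes, and 50% for ANKRD22, which equals the panel median of 50%. The longest run of identical bases shared by both capital parts was 5 bases.

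Both transcripts were measured well above the low end of the assay. Whole-number counts recovered from the normalized values summed to between 13871 and 34415 per animal over the 20 features. RETN counts ran from 137 to 1678 with a median of 773, and ANKRD22 counts from 133 to 914 with a median of 530. In SD11, which had the lowest counts of both genes, the 95% interval from counting alone (exact Poisson) was 7.01 to 7.51 for RETN and 6.96 to 7.47 for ANKRD22 on the log2 scale. Among the 20 features, the SD of log2 normalized counts over the 23 animals ranked 8 for RETN (0.67) and 10 for ANKRD22 (0.65), counted from the most variable.

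At 6 h, the RETN level in Ph1 was 8.94 in C1, 9.44 in C2, 9.57 in C3, 9.83 in C11 and 10.28 in SD6 (log2 normalized counts, as for all levels below). In Ph2 it was 9.10 in C4, 9.79 in C5 and 10.12 in G33. The Ph2 animals lay inside the range of the Ph1 animals. At 12 h, RETN in Ph1 was 8.56 in C17, 8.97 in C18, 9.10 in C21 and 9.76 in C19. In Ph2 it was 9.36 in SD13, 9.62 in G34 and 9.79 in SD4. All 3 Ph2 animals lay above 3 of the 4 Ph1 animals, and C19 of Ph1 lay among them. At 24 h, RETN in Ph1 was 9.04 in SD14, 9.36 in SD7, 9.56 in SD1, 9.73 in SD2 and 9.93 in SD10. In Ph2 it was 7.26 in SD11, 9.72 in SD8 and 10.67 in SD9. The lowest and the highest RETN level of the 23 animals thus both belonged to Ph2 at 24 h.

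At 6 h, the ANKRD22 level in Ph1 was 8.75 in C11, 8.81 in C2, 9.0 in C1, 9.60 in SD6 and 9.71 in C3. In Ph2 it was 9.18 in C5, 9.26 in C4 and 10.01 in G33, the highest of all animals. The groups overlapped, with SD6 and C3 of Ph1 above C4 and C5. At 12 h, ANKRD22 in Ph1 was 8.58 in C21, 8.98 in C19, 9.60 in C17 and 9.66 in C18. In Ph2 it was 9.39 in G34, 9.47 in SD13 and 9.49 in SD4. The Ph2 animals lay close together between a lower and a higher pair of Ph1 animals. At 24 h, ANKRD22 in Ph1 was 7.75 in SD14, 8.37 in SD1, 8.60 in SD10, 8.72 in SD7 and 9.04 in SD2. In Ph2 it was 7.22 in SD11, 8.76 in SD8 and 9.48 in SD9. SD11 was lowest and SD9 highest, and the other Ph2 animal, SD8, lay inside the range of Ph1.

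**Figure D1:**
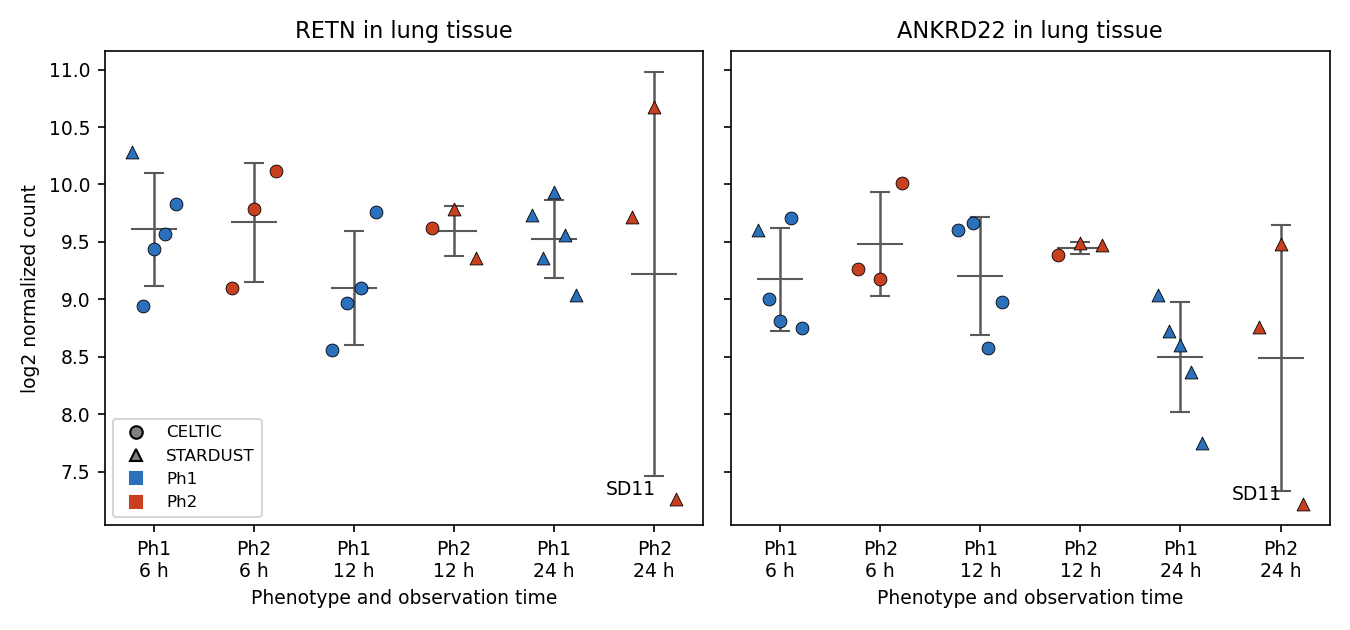
Log2 normalized count of RETN (left) and ANKRD22 (right) in each of the 23 sheep, by phenotype and observation time. Circles are CELTIC and triangles STARDUST animals, and bars show the group mean and SD. SD11 lies lowest in both panels, at 7.26 and 7.22, and the Ph1 animals at 24 h have a mean ANKRD22 level of 8.50 against 9.17 at 6 h and 9.20 at 12 h.

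RETN did not differ between the phenotypes over all time points beyond the spread between animals. Its mean was 9.43 ± 0.47 over the Ph1 animals (SD, n = 14) and 9.49 ± 0.95 over the Ph2 animals (SD, n = 9). The difference was 0.060 on the deposited scale (p = 0.369 by a two-sided exact Mann-Whitney test, with adjusted p = 0.491 over the 20 features) and -0.060 after centring each animal on the mean of T036 to T039 (adjusted p = 0.724 by the same exact test). In 6 of 9 Ph2 animals RETN lay above the Ph1 median of 9.50. The 95% interval of the shift from Ph1 to Ph2, obtained by inverting the same exact test, ran from -0.31 to 0.74. The shift itself, the median over all pairs of a Ph1 and a Ph2 animal, was 0.20. Without SD11 the difference was 0.34 (exact p = 0.145, adjusted p = 0.242) and the interval -0.14 to 0.78.

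For ANKRD22 the mean was 8.94 ± 0.56 over the Ph1 animals (SD, n = 14) and 9.14 ± 0.79 over the Ph2 animals (SD, n = 9). The difference of 0.20 was smaller than either SD (exact p = 0.305 with the same test, adjusted p = 0.470). In 7 of 9 Ph2 animals it lay above the Ph1 median of 8.89, the exceptions being SD8 and SD11. The shift, taken as for RETN, was 0.41 with an interval of -0.23 to 0.77. Without SD11 the difference was 0.44 and the interval -0.13 to 0.88 (exact p = 0.110, adjusted p = 0.200). Other settings lowered it, to 0.092 without G33 and to 0.080 after centring on T036 to T039. Neither gene had an unadjusted p below 0.05, which 3 of the 20 features had (15%).

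The genes were described beside 6 panel genes of neutrophil granules and surface, namely MMP8, OLFM4, LCN2, TCN1, CD177 and CEACAM1. These are named by place like the members. Over all animals 5 of these 6 had a positive difference between Ph2 and Ph1, none of them with an unadjusted p below 0.05, and CEACAM1 had a difference of -0.37 (exact p = 0.00689, adjusted p = 0.0857). Their median difference was 0.26, against 0.068 over the 20 features. The difference of ANKRD22 (0.20) lay near that median and the difference of RETN (0.060) near the median of all features.

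Among the 12 CELTIC animals, RETN in Ph2 exceeded RETN in Ph1 by 0.39 (exact p = 0.154, adjusted p = 0.279). Among the 11 STARDUST animals the difference was -0.29 (exact p = 1), and 0.24 without SD11 (exact p = 0.610). ANKRD22 differed by 0.32 among CELTIC animals (exact p = 0.283) and by 0.20 among STARDUST animals (exact p = 0.537), and by 0.62 among these without SD11 (exact p = 0.171). Whether the phenotype difference itself differed between studies was tested with limma across all features (adjusted p = 0.580 for RETN and adjusted p = 0.876 for ANKRD22). One of the 20 features had an unadjusted p below 0.05 in this test (5%).

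**Figure D2:**
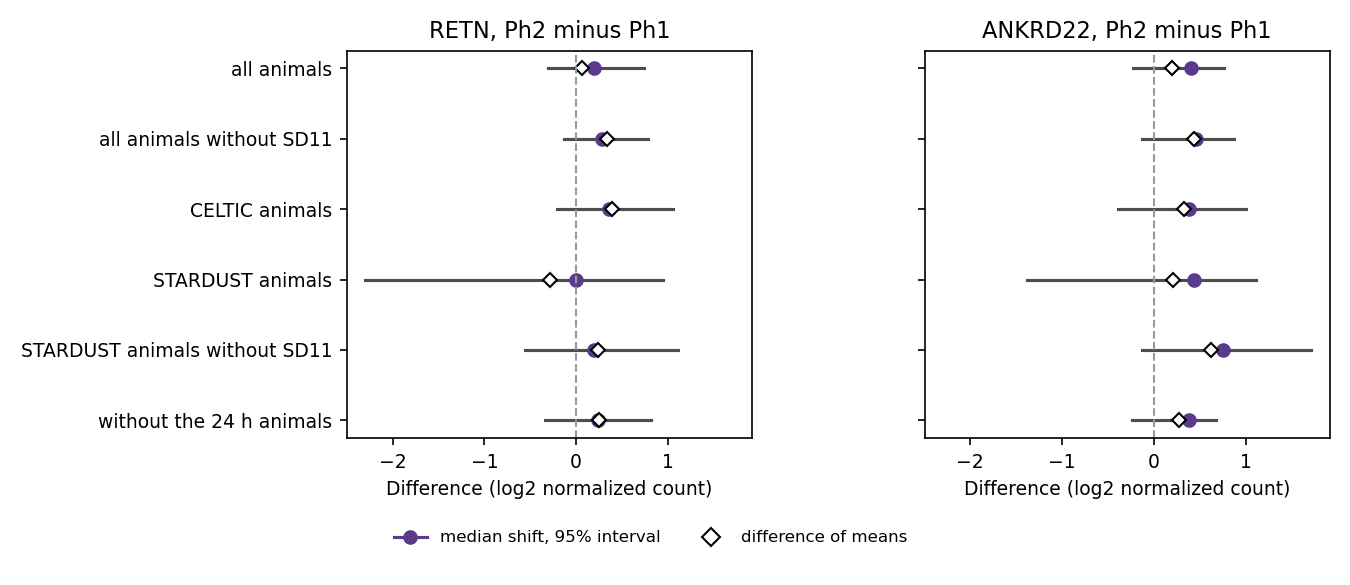
Difference between Ph2 and Ph1 in log2 normalized counts of RETN (left) and ANKRD22 (right) over all animals and over subsets. Filled circles are the median of all pairwise differences with the 95% interval from the exact Mann-Whitney test, open diamonds the difference of means. All 12 intervals include 0, and the widest, from -2.30 to 0.94, is that of RETN among STARDUST animals with SD11.

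At single time points, the RETN difference (Ph2 minus Ph1) at 6 h was 0.058 on the deposited scale (exact Mann-Whitney p = 1) and -0.29 after centring every animal on its median feature (adjusted exact p = 0.924). It was 0.50 in the 12 h animals (exact p = 0.229), 0.32 without C17 and 0.31 centred on T036 to T039. At 12 h all 4 Ph1 animals were of CELTIC and 2 of the 3 Ph2 animals of STARDUST. Phenotype and study cannot be fully told apart there. Among the CELTIC animals at 12 h, with 1 Ph2 animal, the RETN difference was 0.53. In the 24 h animals the RETN difference was -0.31 (exact p = 1). For ANKRD22 the differences were 0.31, 0.24 and -0.0072 with exact p = 0.393, 1 and 0.786, and those at 6 and 24 h turned to -0.039 and 0.21 with the same centring. Without G33 the ANKRD22 value at 6 h was 0.049, and without C21 the value at 12 h was 0.037, so each rested largely on 1 animal. The smallest p that the exact test can give is 0.0571 with the animals at 12 h and 0.0357 with those at 6 or 24 h. At each time point, 0 of the 20 features had an unadjusted p below 0.05 by this test (0%). At 24 h without SD11, RETN differed by 0.67 (exact p = 0.381) and ANKRD22 by 0.63 (exact p = 0.190), and the ANKRD22 sign also turned without SD2, SD7 or SD10. A change of the phenotype difference over time was tested with limma across all features (adjusted p = 0.803 for RETN and adjusted p = 0.945 for ANKRD22), and 1 of 20 features had an unadjusted p below 0.05 (5%).

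Ordered by their means, the 6 groups of RETN ran from Ph2 at 6 h (9.67 ± 0.52, n = 3) over Ph1 at 6 h (9.61 ± 0.49, n = 5), Ph2 at 12 h (9.59 ± 0.22, n = 3) and Ph1 at 24 h (9.52 ± 0.34, n = 5) to Ph2 at 24 h (9.22 ± 1.76, n = 3) and Ph1 at 12 h (9.10 ± 0.50, n = 4). No neighbours in this order differed by more than the larger of their SDs, and without SD11 Ph2 at 24 h had a mean of 10.20 (n = 2) and would be first. ANKRD22 ran from Ph2 at 6 h (9.48 ± 0.45, n = 3) over Ph2 at 12 h (9.45 ± 0.050, n = 3), Ph1 at 12 h (9.20 ± 0.52, n = 4) and Ph1 at 6 h (9.17 ± 0.45, n = 5) to Ph1 at 24 h (8.50 ± 0.48, n = 5) and Ph2 at 24 h (8.49 ± 1.16, n = 3). Here only the step from Ph1 at 6 h to Ph1 at 24 h, 0.68, exceeded the larger SD of 0.48. Without SD11 the ANKRD22 mean of Ph2 at 24 h was 9.12, above Ph1 at 24 h and below the other groups.

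Within Ph1, the exact permutation Kruskal-Wallis test over the 3 time points gave p = 0.377 for RETN (adjusted p = 0.538) and p = 0.115 for ANKRD22 (adjusted p = 0.287). Of the 20 features 4 had an unadjusted p below 0.05 in this test (20%). In Ph1 all 12 h animals were of CELTIC and all 24 h animals of STARDUST, so the test cannot tell time from study. Within Ph2 the same exact permutation test gave p = 0.993 for RETN and p = 0.439 for ANKRD22 (adjusted p = 0.993 and 0.730), and 1 feature had an unadjusted p below 0.05 (5%). The exact permutation F test of means gave p = 0.0798 for ANKRD22 in Ph1 and p = 0.211 in Ph2.

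After these values had been seen, the 24 h animals were compared with the 15 earlier ones over both phenotypes. ANKRD22 was 8.49 ± 0.72 at 24 h (SD, n = 8) and 9.30 ± 0.41 before (SD, n = 15), which is -0.81 relative to the earlier animals (exact Mann-Whitney p = 0.00533, adjusted p = 0.0338). Without SD11 it was -0.62 (exact p = 0.0137, adjusted p = 0.0851), and the adjusted p was then above 0.05. After centring on the median feature it was -0.39 (exact p = 0.0194, adjusted p = 0.0647). Centred on the unnamed features T036 to T039 it was -0.84 (exact p = 0.000767, adjusted p = 0.0153). These features moved themselves in this contrast, T036 by 0.56, T037 by -0.70, T038 by 0.43 and T039 by -0.16. The adjusted exact p was below 0.05 for all of them but T039. An unadjusted p below 0.05 was found for 8 of the 20 features in this comparison (40%), and the grouping was chosen for its pattern. RETN differed by -0.072 (exact p = 0.975), by 0.23 without SD11 and by 0.34 with the median centring.

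Since the earlier animals came mostly from CELTIC, the same contrast was taken within STARDUST. There ANKRD22 was 9.60 in SD6 at 6 h and 9.47 and 9.49 in SD13 and SD4 at 12 h, and 7 of the 8 animals at 24 h lay below all of these. SD9, at 9.48, lay between SD13 and SD4. The difference was -1.02 with 3 and 8 animals (exact Mann-Whitney p = 0.0242, adjusted p = 0.242), and -0.84 without SD11 (exact p = 0.0333, adjusted p = 0.333), while 3 of 20 features had an unadjusted p below 0.05 (15%). RETN differed by -0.40 in the same animals (exact p = 0.497).

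Between the studies as a whole, RETN was 9.52 ± 0.87 in STARDUST (SD, n = 11) and 9.40 ± 0.46 in CELTIC (SD, n = 12), 0.12 apart (exact Mann-Whitney p = 0.413, adjusted p = 0.551). This value rested on single animals, being 0.0041 without SD9 and 0.34 without SD11, and it was 0.42 centred on the median feature. ANKRD22 was 8.77 ± 0.77 in STARDUST and 9.24 ± 0.44 in CELTIC, -0.47 relative to CELTIC (exact p = 0.134, adjusted p = 0.223), and the value was -0.32 without SD11 and -0.17 centred on the median feature. Without the 24 h animals the ANKRD22 difference was 0.27 (exact p = 0.448), that is, of the opposite sign, with 3 STARDUST animals left. RETN differed by 0.38 among Ph1 animals and by -0.30 among Ph2 animals, and by 0.41 without the 24 h animals (exact p = 0.233). With phenotype and time point as blocks in limma, the RETN difference between the studies was 0.51 (adjusted p = 0.498). Between the studies 7 of 20 features had an unadjusted p below 0.05 (35%), and neither RETN nor ANKRD22 was among them. The median total count was 16183.5 in CELTIC and 21902 in STARDUST animals. RNA integrity numbers listed in the supplement were mostly lower in CELTIC than in STARDUST lobes. Those of the upper lobe of C19 and SD4 lay below the limit given in the methods. Whether these lobes were pooled is not stated. Whether depth or RNA integrity bears on these differences was not tested.

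In SD11, a Ph2 animal of STARDUST at 24 h, RETN was 7.26, while the other 8 Ph2 animals ranged from 9.10 to 10.67 (median 9.75). ANKRD22 was 7.22, while the others ranged from 8.76 to 10.01 (median 9.43). These levels differed from the medians by -2.49 and -2.21, that is, 5.61-fold and 4.62-fold below them on the linear scale. After centring on the median feature the gaps were -0.80 and -0.54, and after centring on T036 to T039 they were -2.20 and -1.95. The median feature of SD11 (7.37) lay between its RETN level and its T038 level (7.47). RETN itself thus helped to set this centre, which narrows the gap. As deposited, both levels were also the lowest of all 23 animals, the next lowest being C17 for RETN (8.56) and SD14 for ANKRD22 (7.75), both of Ph1. The values rested on 137 and 133 counts. SD11 had a total of 17798 counts, the lowest of the 11 STARDUST animals, while totals of other animals went down to 13871.

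The low values of SD11 were not spread evenly over the panel. It lay below the median of the other Ph2 animals in 11 of 20 features and above it in 9. It was the lowest of the 9 Ph2 animals in 5 features. These were RETN, ANKRD22, GPR84 (a G protein-coupled receptor for medium-chain fatty acids on myeloid cells), CD177 (a neutrophil surface glycoprotein) and the unnamed T037. In all of these except GPR84 it was also the lowest of the 23 animals, CD177 resting on 6 counts. GPR84 was 7.02 in SD11 and 7.57 to 10.52 in the others, and T037 was 8.88 against 9.79 to 11.32. OLFM4, a neutrophil granule glycoprotein, differed by -4.52 from the median of the others on 6 counts, but another Ph2 animal was lower still. MMP8, also of the neutrophil list, differed by -1.49 on 11 counts and ranked 2 of 9 from the lowest. LCN2 and TCN1, secreted proteins of neutrophil granules, were 11.65 and 11.65, inside the ranges of 10.76 to 12.45 and 9.94 to 12.49 of the other animals. MME, a membrane peptidase of neutrophils and lung epithelium, was 12.87 and higher than in the other Ph2 animals (10.77 to 12.66). SD11 thus lay low in some panel genes known from neutrophils and myeloid cells and inside or above the range in others. In SD11, LCN2, TCN1 and MME rested on 2871, 2865 and 6678 counts, far more than OLFM4, CD177 or MMP8. The cells behind these whole-lung levels were not identified. The median of its 20 features, 7.37, was the lowest of the 23 animals. Centred on this median, which its own RETN level helped to set, SD11 was the lowest Ph2 animal for RETN but not for ANKRD22. For ANKRD22 it ranked 2 of 9, and among all 23 animals it ranked 2 for RETN and 5 for ANKRD22. Centred on T036 to T039 it was the lowest of all 23 for both.

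**Figure D3:**
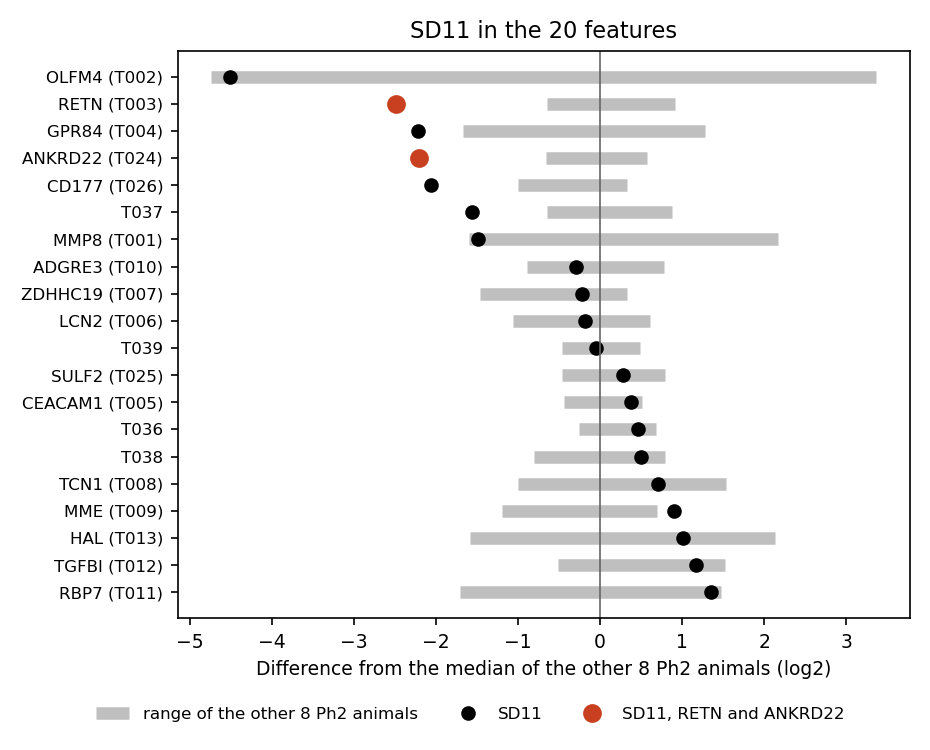
Log2 normalized count of SD11 minus the median of the other 8 Ph2 animals in each of the 20 features (points), with the range of these 8 animals (grey bars). RETN (-2.49) and ANKRD22 (-2.21) lie outside the range on the low side, as do GPR84, CD177 and T037, and MME lies above it.

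Over the 23 animals, RETN and ANKRD22 correlated with Pearson's r = 0.55 and Spearman's rho = 0.27. Without SD11, r was 0.22 and rho 0.17 (22 animals). Leaving out any other animal kept r at 0.52 or above, so the linear correlation rested on SD11. Without both animals farthest from the RETN median, SD11 and SD9, r was 0.16 and rho 0.12. When the animals were centred on the median of their features r was 0.13, and 0.078 without SD11. With centring on T036 to T039 r was 0.50 (0.15 without SD11), and for the residuals from the group means it was 0.67 (0.33 without SD11). All features of an animal share its normalization factor and its pooled RNA, and the correlation is a description without a test.

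The relation was not alike in the subsets. Among the 14 Ph1 animals r was 0.014 and rho -0.055, and among the 12 CELTIC animals 0.065 and 0.014. Among the 9 Ph2 animals r was 0.87 and rho 0.68, and without SD11 0.33 and 0.55. Among the 11 STARDUST animals r was 0.82 and rho 0.74, and without SD11 still 0.64 and 0.65. The STARDUST animals thus showed the relation with and without SD11 and the CELTIC animals did not, a difference that was not tested. The studies also differed in count totals and RNA integrity. The Ph1 animal SD14, second lowest for ANKRD22, also had the lowest RETN level of the STARDUST animals other than SD11.

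**Figure D4:**
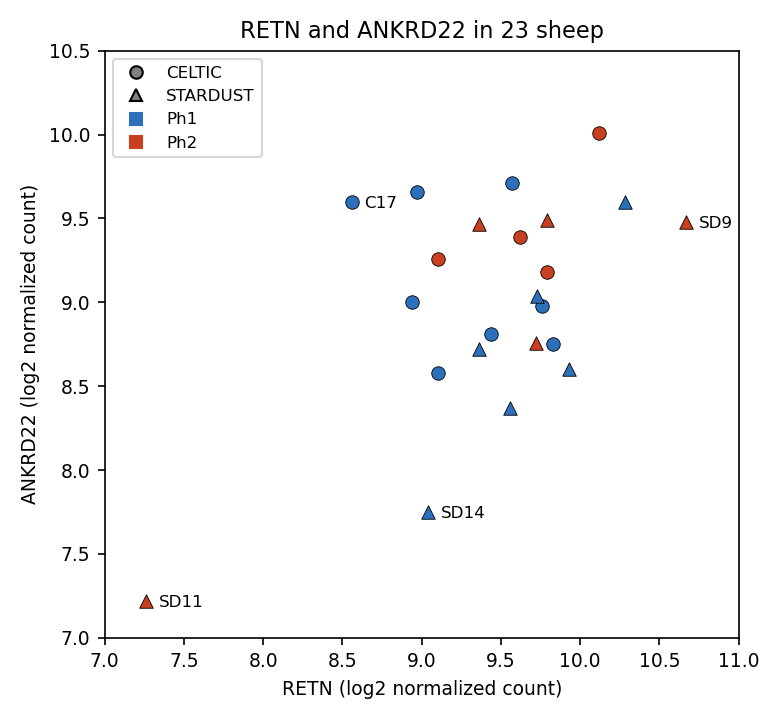
RETN against ANKRD22 (log2 normalized counts) in the 23 sheep, with Ph1 in blue, Ph2 in red, CELTIC as circles and STARDUST as triangles. SD11 stands alone at the lower left (7.26 and 7.22), and without it r falls from 0.55 to 0.22.

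The ratio of the genes does not depend on the normalization factor of an animal. Its log2 value, RETN minus ANKRD22, was 0.49 ± 0.72 in Ph1 (SD, n = 14) and 0.35 ± 0.47 in Ph2 (SD, n = 9). In SD11 it was 0.043, within the range of the Ph2 animals from -0.16 in C4 to 1.19 in SD9. It was highest in Ph1 at 24 h (1.03 ± 0.34, n = 5) and lowest in Ph1 at 12 h (-0.11 ± 0.89, n = 4), where it reached -1.03 in C17. Levels of the genes cannot be set against each other, since each probe pair counts with its own efficiency, but the ratio can be compared between animals.

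By Spearman's rho over the 23 animals, the features most like RETN were OLFM4 (0.38), CD177 (0.36) and GPR84 (0.27), and ANKRD22 followed at rank 4 of 19. Those most like ANKRD22 were MMP8, a neutrophil collagenase (0.58), GPR84 (0.51) and CD177 (0.51), and RETN ranked 7. Without SD11 these 3 kept their ranks for ANKRD22, at 0.53, 0.47 and 0.44. For RETN, OLFM4 stayed first at 0.31, while CD177 and GPR84 moved to ranks 4 and 5 and ANKRD22 to rank 7. Among the 190 pairs of features, the pair of RETN and ANKRD22 ranked 10 by Pearson's r and 46 by rho, and 58 and 71 without SD11. MMP8, CD177 and OLFM4 had low counts, down to 11, 6 and 4 per animal, which limits their part of these values. ANKRD22, MMP8, GPR84 and CD177 all had lower means at 24 h than before (differences of -0.81, -0.73, -0.87 and -0.69). The rho values run across these groups, and the part of the groups in them was not tested.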

How the data were processed

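Expression was measured in RNA pooled from lobes of each animal on a custom NanoString nCounter assay. Per the methods, the authors subtracted a background (negative controls), scaled counts to 3 reference genes (POLR2A, RPL19, TBP; geometric mean), and log2-transformed them. The deposited log2 normalized counts of 20 features in 23 animals were used as given, and 0 sample columns were left out. No 3 features had a constant mean (lowest SD 0.14), so the normalizing genes were not identified among them. Unlogged, the values of an animal were multiples of a single factor (tolerance 0.0001), and the smallest such whole numbers were taken as counts. Subtracting a fractional background would not in general leave such multiples. Whether the deposited values were background-subtracted was not determined. Intervals from the recovered counts treat them as raw counts and cover counting error only.

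Ph1 and Ph2 were compared by exact Mann-Whitney tests (two-sided), time points by Kruskal-Wallis tests with exact permutation, and interactions by limma, with Benjamini-Hochberg adjustment over the 20 features. Each animal was 1 replicate. The tests were tried on simulated data. RETN and ANKRD22, the gene list and the rule for named features (the 3 features most like each gene, the low features T007 and T011 and those in which SD11 was lowest or highest in Ph2) were chosen with earlier results of these data known. Alternatives covered tests, blocks, studies, centring, low features, the linear scale and leaving out each animal. Centring on the median feature is not independent of the genes, since ANKRD22 ranked 11 and RETN 14 of 20 by median count. T036 to T039, at places 17 to 20, were left unnamed and served as the other centre. They were not constant either, with SDs of 0.45, 0.69, 0.35 and 0.25 over the animals. Python 3.11.15 (numpy 2.4.6, scipy 1.17.1, pandas 2.3.3, matplotlib 3.10.9) and R 4.3.3 (limma 3.58.1) were used.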

Additional observations from a re-analysis of the deposited data

Results flagged for a closer look

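SD11 stood apart from the other 8 Ph2 animals with RETN at 7.26 and ANKRD22 at 7.22. The gap to the nearest animal, divided by the whole range of the 9 animals (Dixon's ratio), was 0.539 and 0.554. These values are a description and no test, since the genes were selected with the values of SD11 known. Of 16 combinations of a gene and a group of 4 to 10 animals, these 2 had a ratio above the 95% critical value. Because of that selection, no chance rate applies to this count.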

How the results depend on the processing

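The comparison of 24 h with earlier animals was chosen after the data were seen. No paired analysis was possible because each animal was harvested once and belongs to 1 group. RETN, Ph2 minus Ph1, was 0.060 over all animals, -0.0015 in limma with blocks for study and time point, -0.29 in STARDUST and -0.060 centred on T036 to T039, and from -0.087 (without SD9) to 0.34 (without SD11) on leaving out single animals (-0.018 without G33, -0.0066 without C17). At 6 h it was -0.29 centred on the median of the features and -0.17 to 0.34 on leaving out single animals (-0.11 without C1, -0.00040 without C5), and at 24 h -1.03 to 0.67. ANKRD22 over all animals was 0.20, and 0.092 to 0.44 on leaving out single animals, and turned to -0.039 at 6 h and 0.21 at 24 h with the same centring, and lay between -0.50 and 0.63 at 24 h on leaving out single animals (0.13 without SD2, 0.049 without SD7, 0.020 without SD10). Between the studies, RETN was -0.30 in Ph2 animals, and ANKRD22 0.27 without the 24 h animals and 0.23 with phenotype and time point as blocks. For ANKRD22 over time, adjusted p was 0.287 in Ph1 and 0.0338 for 24 h against earlier in all animals. Pearson's r was 0.55 and moved to 0.16 without SD11 and SD9, 0.014 in Ph1, 0.065 in CELTIC and 0.13 centred on the median (0.50 centred on T036 to T039 and 0.67 for residuals from group means), and lay between 0.22 and 0.65 on leaving out single animals. The count of features with an unadjusted p below 0.05 between phenotypes was 3, 5 with time point or study as a block, 6 in CELTIC, 1 in STARDUST and 7 without the 24 h animals, and 3 to 7 on leaving out single animals (7 without SD11, 5 without C1, C11 or SD8). No cause was tested. In none of the alternatives other than 24 h against earlier did either gene reach an adjusted p below 0.05.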
